A study of Mus musculus with 4 samples.

Results

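The Krüppel-like factors (KLFs) described here are 7 genes, Klf2, Klf3, Klf4, Klf6, Klf7, Klf10 and Klf13, out of 18825 genes in a count table of 3002 myeloid cells. The members were given by name, with earlier results of these data known. No threshold on their values was applied here, and all 7 passed the filter on low counts. Each held more counts than any other KLF gene in the table, 1304 or more against 1215 for Klf9. The shares of all genes given beside them below were not matched for this. The cells were live CD45+ leukocytes, that is cells with the pan-leukocyte surface protein, from the atherosclerotic aortas of Apoe-/- mice, which had spent 13 weeks on a western diet. Loss of apolipoprotein E raises plasma cholesterol, and with a western diet such mice form arterial plaques. Per the series text 6 mice were used, and the labels name 2 biological replicates of 2 libraries each. The sources used here do not say how the mice divide over the replicates, and every library carries the same genotype and diet, so that no wild-type or chow-fed group enters. The cells were compared across the 14 clusters, numbered 0 to 13, that the authors deposited.

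KLFs are transcription factors that bind GC boxes and CACCC boxes in promoters through zinc fingers at the end of the protein, and differ in the partners that their other parts recruit. Several are immediate-early or flow-responsive genes whose transcripts are made quickly and decay quickly. In arteries, Klf2 and Klf4 are best known for holding endothelial cells in a quiescent state and for restraining inflammatory genes in myeloid cells. Klf6 is known to favour inflammatory gene expression in macrophages, and Klf4 takes part in monocyte differentiation.

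Promoters of 6 members were found in the RefSeq table of GRCm38.p6, and that of Klf10 was not analysed. The windows of Klf2, Klf4 and Klf6, the 3 members with the most counts, are shown. Each is the 250 bases before the annotated start, written 5′ to 3′ on the strand of the gene. Capitals mark the CRE core TGACG, the GC box GGGCGG, the CACCC box CCACCC and the MEF2 site, on either strand, and neighbouring matches may run together.
Klf2 promoter, chr8:72318812-72319061, plus strand: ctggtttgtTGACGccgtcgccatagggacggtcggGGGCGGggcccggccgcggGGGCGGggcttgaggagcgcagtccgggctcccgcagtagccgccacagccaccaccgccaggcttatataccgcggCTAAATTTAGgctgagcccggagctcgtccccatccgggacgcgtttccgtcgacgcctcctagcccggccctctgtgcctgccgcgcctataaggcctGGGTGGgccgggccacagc
Klf4 promoter, chr4:55532476-55532725, minus strand: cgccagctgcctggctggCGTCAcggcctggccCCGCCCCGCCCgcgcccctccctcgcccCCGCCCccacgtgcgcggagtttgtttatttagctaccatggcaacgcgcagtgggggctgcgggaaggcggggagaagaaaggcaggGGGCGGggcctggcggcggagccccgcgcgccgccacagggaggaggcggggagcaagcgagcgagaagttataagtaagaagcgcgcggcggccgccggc
Klf6 promoter, chr13:5861239-5861488, plus strand: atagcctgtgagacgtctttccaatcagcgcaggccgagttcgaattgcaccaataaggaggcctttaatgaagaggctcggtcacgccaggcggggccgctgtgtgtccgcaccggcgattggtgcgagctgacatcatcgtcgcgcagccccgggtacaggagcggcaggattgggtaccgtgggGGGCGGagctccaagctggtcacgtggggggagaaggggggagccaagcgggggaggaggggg

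The GC box, a site to which KLF proteins themselves bind, was in all 6 promoters that could be read and in 32.7% of all 32841 promoter windows of the table. The CACCC box was in 4 of 6, against 28.1% of all windows, and the CRE core, a site of cAMP-responsive factors, in 3 of 6, against 17.8%. The EGR site GCGGGGGCG, whose letters overlap the GC box, was in 3 of 6, those of Klf2, Klf3 and Klf4, against 2.57% of all windows. The CCAAT box was in 2 of 6, Klf6 and Klf13, against 33.9%. The MEF2 site was found in Klf2 alone, with its first base at position -118 from the start, against 2.92% of all windows, and the full CRE TGACGTCA, the AP-1 site TGANTCA, the letters TATAAA and the CArG box in none. The members' windows were rich in G and C, at 59.2% in Klf7 to 78.4% in Klf3, against a median of 52.4% over all windows, and GC-rich letters are then more frequent. A match describes these letters and shows no binding.

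The 7 genes together held 13837 UMIs (unique molecular identifiers, 1 for each captured transcript) of Klf2, 1332 of Klf3, 11253 of Klf4, 21290 of Klf6, 1304 of Klf7, 1392 of Klf10 and 2872 of Klf13. The 4 libraries held 236 to 1231 cells and 1698585 to 5954716 UMIs, with median UMIs per cell of 4196 to 6672, and no cell barcode was shared between libraries. Over whole libraries, Klf2 had 632 and 690.4 CPM in replicate 1 and 983 and 1104 CPM in replicate 2, so that the replicates were apart, and Klf13 had 161 to 189.9 CPM. Levels are in CPM, a gene's share of the UMIs of a sum scaled by the usual constant, where a sum pools all cells that 1 biological replicate has in 1 cluster, and are given as mean ± SD (n = 2). Counts from the 3′ end do not scale with gene length, and no level of a gene is set against that of another gene.

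Markers gave the clusters their descriptions. Cluster 0 was resident-macrophage-like, with 12 of 12 listed markers such as Lyve1, Cd163 and Cd209f at 2-fold or more of their mean level elsewhere. Cluster 1 was a macrophage cluster led by Cd72 and Cx3cr1 with no subtype name, cluster 2 was inflammatory-macrophage-like with 9 of 12 markers, and also held 9 of 12 resident markers. Cluster 3 held 9 of 12 resident markers, led by haemoglobin genes that came from 1 cell. Cluster 8 was foamy-macrophage-like with 10 of 12 and cluster 13 cavity-macrophage-like with 5 of 10. Cluster 5 was monocyte-like, and clusters 4, 11 and 12 were like type 2 conventional, type 1 conventional and mature dendritic cells. Cluster 6 held proliferating cells, with T cell genes among its markers, cluster 7 was neutrophil-like and cluster 9 fibroblast-like. Cluster 7 held 8 of 8 neutrophil markers, but also 9 of 12 inflammatory-macrophage markers and 5 of 5 erythroid genes. Its inflammatory markers summed to 61183 and 60880 CPM in replicates 1 and 2, against 42795 and 43568 CPM in cluster 2. Its erythroid genes summed to 16274 CPM in replicate 1 and 11.2 CPM in replicate 2. Cluster 10 had no name, since mast cell proteases led it. Adgre1, the macrophage marker F4/80, had 150.2 to 630 CPM in the 6 macrophage clusters and 29.3 to 128 CPM in the 3 dendritic clusters, and Flt3, a dendritic cell receptor, 0 to 5.75 and 83.7 to 162 CPM. Lyz2 (10377 to 22227 CPM in macrophage and 912 to 2668 CPM in dendritic clusters) and Zbtb46 (0 to 6.29 and 15.6 to 68.6 CPM) also had separate ranges. The other 3 markers that the series text names had overlapping ranges. Csf1r had 54.6 to 1015 CPM in macrophage clusters, lowest in cluster 8, and 54.6 to 212 CPM in dendritic clusters. Fcgr1 had 50.3 to 286 CPM in macrophage clusters, lowest in cluster 13, and 13.3 to 103 CPM in dendritic clusters. Itgax, listed as a dendritic marker, had 1.65 to 77.4 CPM in macrophage clusters and 9.97 to 147 CPM in dendritic clusters, lowest in cluster 12.

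Clusters 3 and 8 had the 2 lowest mean levels of every member but Klf13, for which cluster 12 lay between them. The replicate range of cluster 3 or 8 overlapped that of cluster 12 for Klf2, Klf3 and Klf10 and that of cluster 10 for Klf7. Both clusters were shallow, at medians of 834 and 980 UMIs in a cell, and poor in the nuclear RNA Malat1, with 1117 and 389 CPM. Cluster 10 was as shallow, at a median of 805 UMIs per cell, but had 10724 and 13289 CPM of Malat1 in replicates 1 and 2. It also had 1003 ± 64.4 CPM of Klf2, 749 ± 525 of Klf4 and 727 ± 84.2 of Klf6, levels within the range of the deep clusters. Its Klf3 (108.3 CPM), Klf10 (38.3 CPM) and Klf13 (175.6 CPM) were within that range too, but its Klf7 (29.0 ± 41.0 CPM) was below it. Cluster 10 held only 76427 UMIs, where 3 counts are 39.3 CPM, so that its Klf7 and Klf10 levels rest on few counts. Every result that rests on clusters 3 and 8 is given with and without them.

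**Figure D1:**
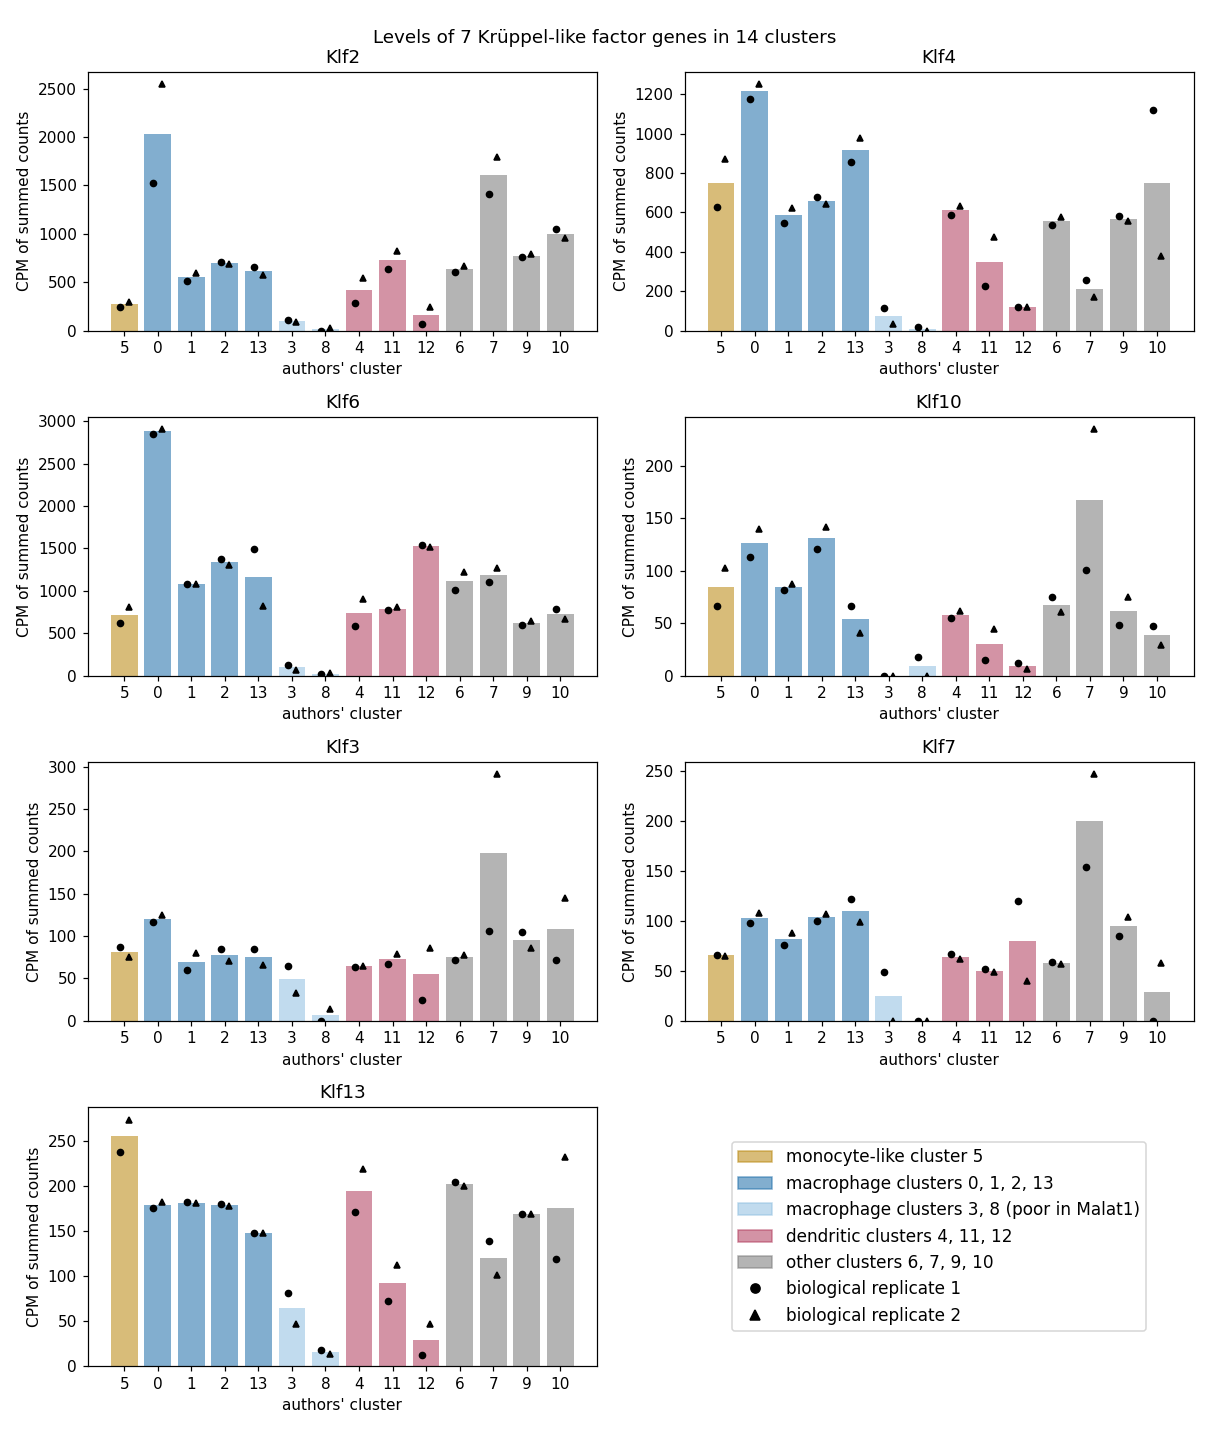
Levels of the 7 KLF genes in each cluster, 1 panel per gene. Bars are means over 2 biological replicates, points the replicates, in CPM of summed counts; clusters run along the axis as monocyte-like, macrophage, dendritic and other. Cluster 0 stands highest for Klf2, Klf4 and Klf6, cluster 7 for Klf3, Klf7 and Klf10, cluster 5 for Klf13, and clusters 3 and 8 are the 2 lowest for every gene but Klf13, for which cluster 12 lies between them.

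Klf2, a factor that in lymphocytes keeps cells quiescent and in endothelium answers to flow, was highest in the resident-macrophage-like cluster 0, with 1521 CPM in replicate 1 and 2547 in replicate 2 (2034 ± 725). Its 4 libraries gave 1543 and 1516 CPM in replicate 1, and 2292 and 2783 in replicate 2, so that the replicates differed more than the libraries within them. The neutrophil-like cluster 7 followed with 1417 and 1789.9 CPM (1603 ± 264), a range that overlapped that of cluster 0. The other macrophage clusters that were not shallow held a middle range, 555 ± 59.2 in cluster 1, 699 ± 17.9 in cluster 2 and 615 ± 56.8 in cluster 13. The monocyte-like cluster 5 had only 246 and 299 CPM (273 ± 37.3), below every macrophage cluster other than 3 and 8. Among dendritic clusters Klf2 spread widely, 731 ± 129 in cluster 11, 416 ± 182 in cluster 4 and 156 ± 118 in cluster 12. In cluster 12, 28 of its 42 Klf2 UMIs came from 1 cell, and without that cell the level was 64.3 ± 10.8 CPM.

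Against the mean of the other clusters, Klf2 was higher in cluster 0 by 2.36 ± 0.14 on the log2 scale (SE; edgeR's quasi-likelihood test, adjusted p = 1.88e-16), and by 1.76 ± 0.13 without clusters 3 and 8 (adjusted p = 2.40e-16). In cluster 7 the difference was 2.12 ± 0.17 (adjusted p = 3.14e-13), and 1.45 ± 0.15 without those clusters (adjusted p = 5.37e-11). It was lower in cluster 5 in both fits, by -0.70 ± 0.21 and -1.28 ± 0.18 (adjusted p = 0.0134 and 8.67e-08), and in cluster 12, by -1.36 ± 0.30 and -2.01 ± 0.25. With all clusters, the cluster 5 call was lost without library 1-2 (-0.76) or 2-2 (-0.27), with limma-trend (-0.61), with thinned cells (-0.70) and with 4 libraries as samples (-0.62), and the cluster 12 call without library 1-2 (-1.28) and with thinned cells (-2.20), and the cluster 12 difference was -2.62 without library 2-2. In the fit without clusters 3 and 8, the cluster 12 difference was -3.30 without library 2-2. Klf2 was also lower in cluster 4 in that fit (-0.64 ± 0.16), a call lost without library 1-2 (-0.66) or 2-2 (-0.38). These fits ran on sums of the same counts from which the clusters were drawn, so that their p-values are too small. With the replicate as a term, the overall difference between the 2 replicates is taken out. The p-values measure only the spread between replicates that is left, pooled over the clusters of a fit. Nothing says that the replicates came from separate experiments. Whether the KLF genes were among the genes that set the clusters was not stated.

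Klf4, which takes part in monocyte differentiation and in the alternative activation of macrophages, was likewise highest in cluster 0, with 1177 and 1251 CPM (1214 ± 51.8), apart from every other cluster's replicate range. The cavity-macrophage-like cluster 13 came second with 854 and 978 CPM (916 ± 87.4). The monocyte-like cluster 5 had 629 and 871 CPM (749.6 ± 171), so that monocyte-like cells were among the highest for Klf4 while among the lowest for Klf2. Neutrophil-like cells showed the reverse: cluster 7 had 255 and 168 CPM of Klf4 (211 ± 61.3) beside its high Klf2. Dendritic clusters ran from 610.3 ± 33.1 CPM in cluster 4 through 350.1 ± 176 in cluster 11 to 119.8 ± 0.231 in cluster 12. In the fit without clusters 3 and 8, Klf4 was higher in cluster 0 (1.30 ± 0.14, adjusted p = 4.75e-11), cluster 13 (0.88 ± 0.17, adjusted p = 9.28e-05) and cluster 5 (0.63 ± 0.15, adjusted p = 0.00126) than in the mean of the others, and lower in cluster 12 (-2.24 ± 0.29, adjusted p = 1.12e-08). Its difference in cluster 7 was called in that fit alone, at -1.30 ± 0.23 (edgeR's quasi-likelihood test, adjusted p = 2.03e-05), against -0.53 ± 0.31 with all clusters (adjusted p = 0.235). In the fit of 12 clusters, the cluster 5 call was lost without library 1-2 (0.62) or 2-1 (0.39) and the cluster 13 call without library 2-2 (0.69), and the cluster 7 difference was -2.13 without library 1-2. Klf4 was also called higher in cluster 2 (0.45 ± 0.15) and lower in cluster 11 (-0.60 ± 0.19) there. The cluster 2 call was lost without library 1-1 (0.32), 2-1 (0.36) or 2-2 (0.66). That in cluster 11 was lost without library 1-2 (-0.44) or 2-2 (-0.93).

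Klf6, a factor tied to inflammatory gene expression, had 2854 and 2905 CPM in cluster 0 (2879.8 ± 36.0), more than in any other cluster. The second highest level was that of the mature-dendritic-like cluster 12, at 1535 and 1515 CPM (1525 ± 14.2), where Klf2, Klf4, Klf10 and Klf13 were at their lowest among the 12 clusters other than 3 and 8. Cluster 2, rich in Ccl2 and Ccl7, followed with 1379 and 1299 CPM (1339 ± 56.0). The other dendritic clusters were lower, at 742 ± 226 in cluster 4 and 789 ± 21.5 in cluster 11, and the fibroblast-like cluster 9 was lowest of the 12, at 622 ± 36.3. In cluster 13, Klf6 had 1499 CPM in replicate 1 and 822 in replicate 2 (1160.3 ± 479), and 142 of its 507 UMIs came from 1 cell of 23242 UMIs. Without that cell the level was 945 ± 174 CPM.

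The fits placed Klf6 higher in cluster 0 than in the mean of the other clusters, by 2.23 ± 0.13 (adjusted p = 1.63e-16) and, without clusters 3 and 8, by 1.57 ± 0.12 (adjusted p = 2.03e-15). Cluster 12 was also higher, by 1.35 ± 0.17 (adjusted p = 3.28e-08) and 0.66 ± 0.15 (adjusted p = 0.000812). Klf6 was the only member that was higher in cluster 12 in either fit. In cluster 2 Klf6 was higher by 1.12 ± 0.15 and, without clusters 3 and 8, by 0.47 ± 0.14. The latter call was lost without library 1-2 (0.77) or 2-2 (0.61). In the fit of 12 clusters it was lower in cluster 9 (-0.85 ± 0.16, adjusted p = 3.23e-05), cluster 10 (-0.96 ± 0.23), cluster 5 (-0.52 ± 0.15) and cluster 4 (-0.47 ± 0.15), and none of these 4 was called lower with all 14 clusters. Without library 1-2 or 2-2, none of these 4 was called, and without library 1-2 the cluster 12 call was lost as well (0.40). The values without library 1-2 were -0.70 in cluster 9, -1.15 in cluster 10, -0.65 in cluster 5 and -0.54 in cluster 4, and those without library 2-2 were -0.61, -1.30, -0.51 and -0.47 in the same order. Cluster 10 was also not called without library 2-1 (-0.74).

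Klf10, a gene induced early by TGF-beta, was highest in the neutrophil-like cluster 7, at 101 and 235 CPM (168 ± 94.8), ahead of cluster 2 with 121 and 142 (132 ± 15.1) and cluster 0 with 113 and 140.2 (127 ± 19.2), and these 3 ranges overlapped. It was nearly absent from cluster 12, with 2 UMIs (9.32 ± 3.78 CPM), and from cluster 3, where none of 335004 UMIs was Klf10, which allows up to 8.96 CPM. Such limits and the intervals below cover counting error only. In the 12-cluster fit, Klf10 was higher in clusters 7 (1.43 ± 0.30, adjusted p = 0.00022), 2 (1.29 ± 0.19, adjusted p = 3.36e-07) and 0 (1.12 ± 0.18, adjusted p = 1.12e-06), and lower in cluster 12 (-3.00 ± 0.71, adjusted p = 0.000945). Klf10 was also called higher in cluster 1 in that fit (0.62 ± 0.19), a call lost without library 1-2 (0.52) or 2-1 (0.52). The fit of 14 clusters gave no usable standard error for Klf10 in clusters 8 and 12 or for Klf7 in clusters 3 and 10.

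Klf3, a repressor that works through the corepressor CtBP, and Klf7, a broadly expressed member studied mostly in neurons, shared their highest cluster. In cluster 7 Klf3 had 106 and 291 CPM (198 ± 131) and Klf7 154 and 246 (199.9 ± 65.4). The replicates of Klf3 overlapped those of cluster 0 (121 ± 5.18), whereas those of Klf7 lay above the next cluster, cluster 13 (110.1 ± 16.2). Over the 11 other clusters without 3 and 8, Klf3 lay between 55.2 ± 44.1 CPM in cluster 12 and 121 in cluster 0, and Klf7 between 29.0 ± 41.0 in cluster 10 and 110.1 in cluster 13. In the fit of 12 clusters Klf3 was higher in cluster 7 by 1.12 ± 0.28 (adjusted p = 0.0023) and in cluster 0 by 0.52 ± 0.17 (adjusted p = 0.0127). Klf7 was higher in cluster 7 by 1.44 ± 0.26 (adjusted p = 2.21e-05), in cluster 2 by 0.57 ± 0.19 and in cluster 0 by 0.45 ± 0.17. The Klf3 calls were lost without library 1-2 (1.19 in cluster 7 and 0.65 in cluster 0), that in cluster 7 also without library 2-2 (0.79). The Klf7 calls were lost in clusters 2 and 0 without library 1-2 (0.40 and 0.46) or 2-2 (0.58 and 0.49), and that in cluster 7 was not.

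Klf13, known in T cells for driving the chemokine gene Ccl5, was not highest in cluster 0. Its highest level was in the monocyte-like cluster 5, with 238 and 274 CPM (256 ± 25.4), above the ranges of all other clusters. Clusters 0, 1 and 2 were alike, at 179 ± 4.59, 182 ± 1.43 and 179 ± 2.25 CPM, and cluster 12 had 29.3 ± 24.4. In the fit without clusters 3 and 8, Klf13 was higher in cluster 5 (0.95 ± 0.15, adjusted p = 1.04e-06), cluster 4 (0.53 ± 0.15, adjusted p = 0.00583) and cluster 1 (0.44 ± 0.14, adjusted p = 0.0293), and lower in cluster 12 (-2.21 ± 0.39, adjusted p = 1.44e-05) and cluster 11 (-0.69 ± 0.24, adjusted p = 0.0373). In cluster 0 it was 0.29 ± 0.14 (adjusted p = 0.126) there, but 0.63 ± 0.15 with all clusters (adjusted p = 0.00106), a call lost without library 1-2 (0.41) and with limma-trend (0.65). The calls in clusters 4, 1 and 11 were lost without library 1-2 (0.52, 0.43 and -0.65), those in clusters 4 and 1 without library 2-1 (0.41 and 0.39), and those in clusters 1 and 11 without library 2-2 (0.66 and -0.22), where cluster 12 was at -4.33.

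Over the order of its 14 levels, neighbouring clusters had separate replicate ranges in 6 of 13 steps for Klf4 and Klf6, 5 for Klf2, 4 for Klf13, 3 for Klf7, 2 for Klf10 and 1 for Klf3. Between the highest and the lowest of the 12 clusters other than 3 and 8, the fold was 18.02 for Klf10, 13.1 for Klf2, 10.1 for Klf4, 8.75 for Klf13, 6.89 for Klf7, 4.63 for Klf6 and 3.59 for Klf3. The Klf10 fold rests on 2 UMIs in cluster 12, and without the 1 cell that held most Klf2 UMIs of cluster 12 the Klf2 fold was 31.6, so that the order of these folds is not firm. For 5 of the 7 genes, all but Klf6 and Klf7, the lowest of the 12 was the mature-dendritic-like cluster 12.

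Counted by cluster, cluster 0 had 7 of 7 members higher than the mean of the others, where 28.5% of the 6657 genes tested were higher, and 6 of 7 without clusters 3 and 8, where 21.0% of 8589 genes were. The median difference of the members there was 1.96 with all clusters and 1.12 without the 2, against 0.26 and 0.19 over all genes. With limma-trend, Klf3 (0.86), Klf7 (1.03) and Klf13 (0.65) were not called in cluster 0 with all clusters. Cluster 7 had 5 of 7 higher (19.2% of all genes), and 4 higher and 1 lower without clusters 3 and 8 (11.7% and 6.71%). Cluster 2 had 6 higher (25.4%), and 4 without those clusters (17.9%). Cluster 5 had 3 higher and 1 lower (18.5% and 2.45%), and 2 and 2 without them (13.6% and 2.48%). Cluster 12 had 1 higher and 3 lower (13.7% and 9.07%), and 1 and 4 without them (10.6% and 9.23%). Among the other clusters, those with members called higher were 1 (5 of 7, against 20.7% of genes), 4 (3, 22.5%), 6 (4, 17.5%), 9 (3, 18.1%), 10 (1, 0.976%), 11 (1, 13.7%) and 13 (4, 10.0%), and none had a member lower. Without clusters 3 and 8 the same clusters had 2 (13.1%), 1 (16.3%), 0, 0, 0, 0 and 1 (7.43%) higher, and cluster 4 had 2 lower (4.27%), cluster 9 1 (5.65%), cluster 10 1 (0.594%) and cluster 11 2 (5.17%).

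Over all pairs of member and cluster, 43 of 98 were higher and 15 lower, where 16.3% and 5.39% of all pairs of gene and cluster were. Without clusters 3 and 8, 21 of 84 were higher and 13 lower, where 12.9% and 4.45% were. Of the 84 pairs present in both fits, 21 were called higher in both, 4 lower in both and 0 in opposite directions. Of the 34 pairs called without clusters 3 and 8, 15 were called whichever library was left out, 19 lost the call without at least 1 library, and 0 turned their sign, an alternative added after the data were seen.

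In cluster 8 every KLF gene was at or under the limit of 3 counts. This foamy-macrophage-like cluster held 2 UMIs of Klf2, 1 of Klf3, 1 of Klf4, 3 of Klf6, 0 of Klf7, 1 of Klf10 and 2 of Klf13 among 128202 UMIs. Cluster 3 held 31, 15, 21, 30, 6, 0 and 20 UMIs of the same genes in that order among 335004 UMIs, so that 6 of the 7 were above that limit there, with 95.3 CPM of Klf2, 98.1 of Klf6 and 64.3 of Klf13. Cluster 0 exceeded cluster 3 by 32.2-fold for Klf6 (exact 95% counting interval 22.6 to 47.8), 23.3-fold for Klf2 (16.4 to 34.3) and 19.5-fold for Klf4 (12.7 to 31.5), but by 3.02-fold for Klf13 (1.93 to 4.97) and 2.72-fold for Klf3 (1.63 to 4.90). Klf7 lay between, at 5.79-fold (2.63 to 15.9), an interval that overlapped those of Klf4, Klf3 and Klf13. Klf10 was at least 14.5-fold higher in cluster 0 than in cluster 3, taking 3 counts as the limit over the cluster.

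Against the mean of the other clusters, 5 members were lower in cluster 3 and 6 in cluster 8, and none was higher, where 6.71% and 11.9% of all genes were lower. Leaving out 1 library ended the calls of Klf4 in cluster 3 (-2.01 without library 1-1), Klf10 in cluster 3 (-6.89 without 1-2), Klf13 in cluster 3 (-0.90 without 1-2, -0.79 without 2-1 and -0.59 without 2-2) and Klf3 in cluster 8 (-2.85 without 1-2). The Klf13 call in cluster 3 was also lost with limma-trend (-0.80), with no filter on low counts (-0.94), without the 5% of cells richest in UMIs (-0.82) and with 4 libraries as samples (-0.90), and the Klf3 call in cluster 8 with DESeq2 (-3.28). Thinning all cells to 500 UMIs ended those of Klf2 (-1.74) and Klf6 (-2.68) in cluster 3. In cluster 3, 24 of 76 cells with any KLF UMI also had a Malat1 UMI (31.6%, exact 95% interval 21.4% to 43.3%), against 27 of 249 cells with none (10.8%, 7.27% to 15.4%). The median UMIs per cell were 980 and 821 in those cells. These shares pool the cells of both replicates, and in cluster 3 replicate 1 had more of both than replicate 2. It had 1815 against 420 CPM of Malat1, and 0.0545% against 0.0264% of UMIs in KLF genes. Whether the shares differed within a replicate was not tested. In cluster 8 the shares were 3 of 9 (33.3%, 7.49% to 70.1%) and 11 of 96 (11.5%, 5.86% to 19.6%), and in cluster 10 37 of 59 (62.7%, 49.1% to 75.0%) and 9 of 18 (exact 95% interval 26.0% to 74.0%), both with overlapping intervals. Whether loss of nuclear or short-lived RNA set these values was not tested.

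The share of cells with at least 1 UMI was read after each cell had been thinned to 500 UMIs, since the median depth ran from 805 to 9680 UMIs per cell, and every cell had at least 502. Klf6 was then found in 67.6% of cells of cluster 0 (exact 95% interval 63.8% to 71.2%; 97.0% before thinning), 45.0% in cluster 2 and 40.9% in cluster 12 (26.3% to 56.8%). It was found in 4.0% of cluster 3 and in 0 of 105 cells of cluster 8, the lowest cluster, taken as the background. Klf2 was found in 49.9% of cells of cluster 0 (91.3% before thinning), 40.8% of cluster 7, 9.57% of cluster 5 and 2.27% of cluster 12. For Klf4, cluster 13 had 43.9% of cells (28.5% to 60.3%) and cluster 0 36.9% (33.1% to 40.7%), with overlapping intervals, although the CPM was higher in cluster 0, and no order is read from these shares. In cluster 7 Klf4 was in 3.20% of cells, near the 0.952% of cluster 8. Klf3, Klf7, Klf10 and Klf13 were found in at most 11.2% of the cells of a cluster at this depth.

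**Figure D2:**
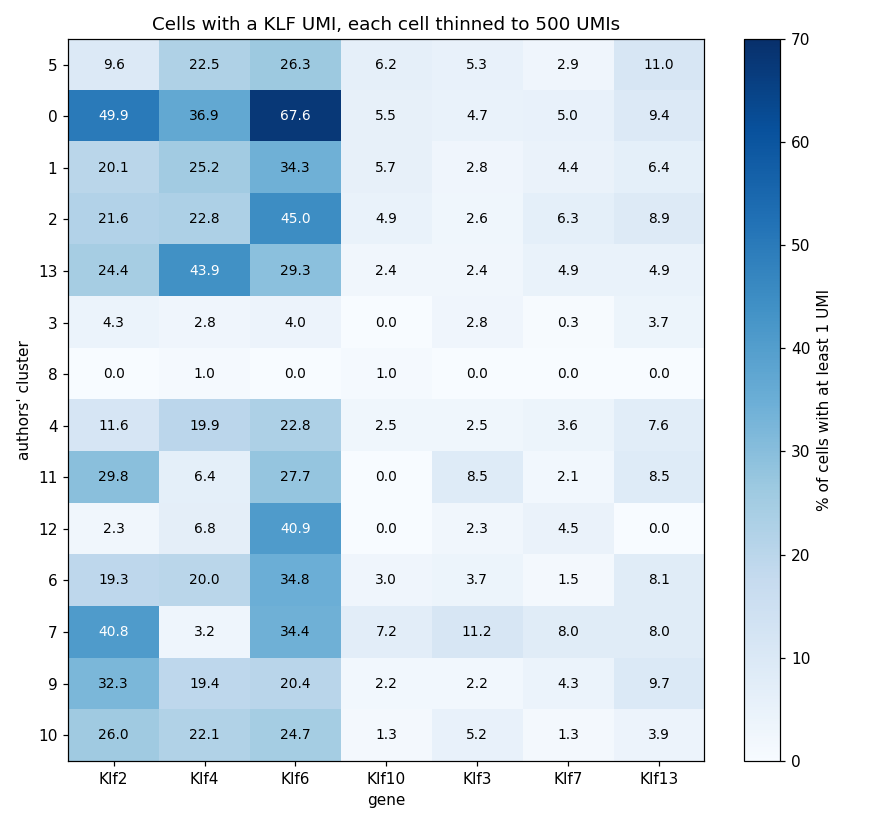
Share of cells with at least 1 UMI of each KLF gene after thinning every cell to 500 UMIs, by cluster, in percent (colour and number). Klf6 and Klf2 are found most widely in cluster 0 (67.6% and 49.9%), Klf2 also in cluster 7 (40.8%), Klf6 also in cluster 12 (40.9%), and clusters 3 and 8 are at or below 4.31% throughout.

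Macrophage clusters were compared with dendritic clusters, the 2 cell classes whose markers the study used to pick its myeloid clusters. Averaged over clusters, Klf2 had 669 ± 119 CPM in the 6 macrophage clusters (585 and 753 in replicates 1 and 2), and 434 ± 143 in the 3 dendritic clusters (333 and 536). Klf6 had 1096 ± 89.7 CPM in macrophage and 1018 ± 77.6 CPM in dendritic clusters, a difference within the replicate spread. In the fit, which averages logarithms and so is drawn down by clusters near 0, 1 of 7 members was called, where 29.4% of all genes were called in either direction and 18.9% were lower. That member was Klf6, lower in macrophage clusters by -1.05 ± 0.15 (edgeR's quasi-likelihood test, adjusted p = 6.98e-07), a sign opposite to that of its mean CPM. Leaving out library 1-2 took the difference to -0.69 and ended this call.

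Without clusters 3 and 8, 6 of 7 members were higher in macrophage than in dendritic clusters and none was lower. Of all genes, 29.7% were called and 17.4% were higher. These are class averages, and cluster means of the classes overlapped for each called member but Klf7. Klf13 in dendritic cluster 4 (194.8 CPM) lay above every macrophage cluster (at most 181.7 CPM, in cluster 1). Klf2 in cluster 11 (731 CPM) lay above clusters 1, 2 and 13 (555, 699 and 615 CPM), and Klf6 in cluster 12 (1525 CPM) above the same clusters. Klf4 and Klf10 in cluster 4 lay above clusters 1 and 13, respectively. Klf2 had 976 ± 177 CPM in the 4 remaining macrophage clusters and 434 ± 143 in dendritic clusters, a fitted difference of 1.17 ± 0.13 (adjusted p = 5.32e-10). Klf4 had 844 ± 42.3 CPM in macrophage clusters and 360.1 ± 69.8 in dendritic clusters (1.44 ± 0.14, adjusted p = 9.91e-12). Klf10 had 99.2 ± 5.10 CPM in macrophage clusters and 32.5 ± 7.36 in dendritic clusters, and its difference of 1.92 ± 0.28 was the largest of the 7 (adjusted p = 1.62e-07).

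Klf6 turned its sign in that fit, with 1614 ± 125 CPM in macrophage clusters, against 1018 ± 77.6 in dendritic clusters (0.63 ± 0.11, adjusted p = 6.54e-06). Klf7 was higher by 0.71 ± 0.18 (adjusted p = 0.00193) and Klf13 by 1.00 ± 0.18 (adjusted p = 1.28e-05), while Klf3, at 85.9 ± 0.953 CPM in macrophage clusters and 64.0 ± 17.8 in dendritic clusters, was not called (0.33 ± 0.20, adjusted p = 0.225). The median over members was 1.00, against 0.17 over all genes. All 6 calls held when each library was left out in turn, an alternative added after the data were seen. Among the dendritic clusters, the mean level in cluster 12 lay below those in clusters 4 and 11 for Klf2, Klf3, Klf4, Klf10 and Klf13 and above both for Klf6 and Klf7.

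Monocyte-like cluster 5 was compared with the macrophage clusters, since monocytes give rise to plaque macrophages. With all clusters, 4 of 7 members were higher in cluster 5 and none was lower, where 24.7% of all genes were called and 20.2% were higher. These were Klf4 (1.60 ± 0.24), Klf6 (0.60 ± 0.20), Klf10 (1.89 ± 0.41) and Klf13 (1.39 ± 0.18), of which the Klf6 call was lost without library 1-2 (0.43) or 2-2 (0.52). It was also lost with RLE scaling (0.50), DESeq2 (0.51), limma-trend (0.58) and 4 libraries as samples (0.53), and the Klf10 call with limma-trend (1.23). Without clusters 3 and 8 only Klf13 was still higher (0.61 ± 0.15, adjusted p = 0.00205), and Klf2 (-1.59 ± 0.18, adjusted p = 1.12e-09), Klf6 (-1.03 ± 0.16, adjusted p = 1.78e-06) and Klf7 (-0.58 ± 0.20, adjusted p = 0.0330) were lower, where 20.1% of genes were called, 12.4% higher and 7.65% lower. Klf4 was then at -0.08 ± 0.16 (adjusted p = 0.813), Klf10 at -0.16 ± 0.20 and Klf3 at -0.03 ± 0.21. The Klf2 and Klf6 calls held without each library, but the Klf7 call was lost without library 1-1 (-0.56) or 1-2 (-0.67) and the Klf13 call without library 1-2 (0.56) or 2-2 (0.38).

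**Figure D3:**
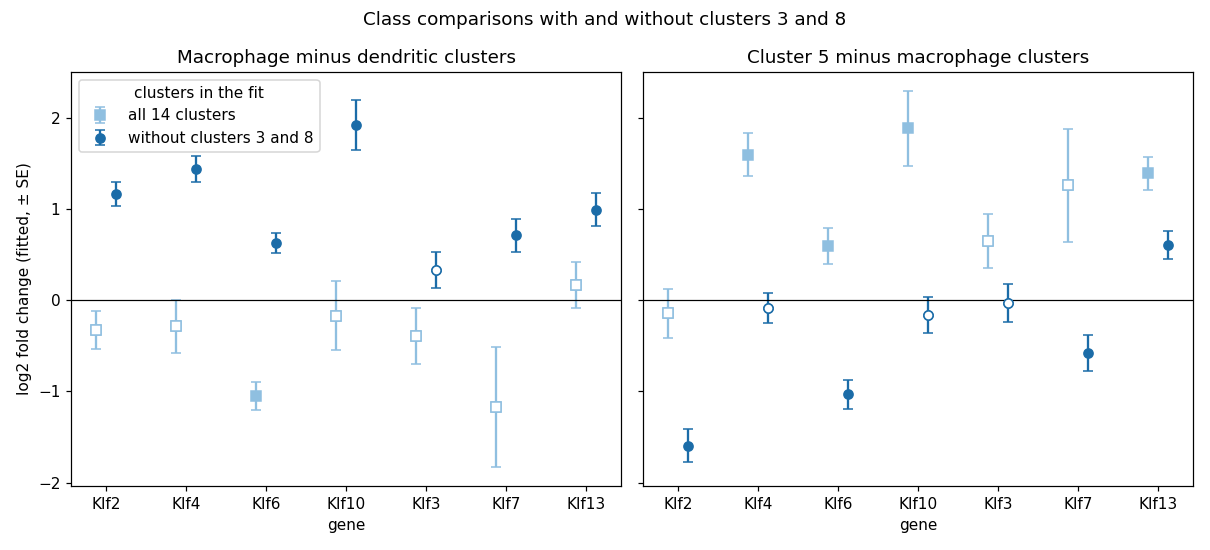
Fitted log2 fold changes of the 7 KLF genes (± SE) for macrophage minus dendritic clusters (left) and cluster 5 minus macrophage clusters (right), with all 14 clusters (squares) and without clusters 3 and 8 (circles); filled symbols passed an adjusted p of 0.05. On the left Klf6 alone passes with all clusters, at -1.05, and 6 genes pass above 0 without clusters 3 and 8; on the right Klf13 is the only gene higher in both fits.

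The levels of the members were more closely correlated across clusters with clusters 3 and 8 than without them. Over 28 sums (14 clusters in 2 replicates), the 21 pairs of members had Pearson correlations of log2(CPM + 10) between 0.52 and 0.90, with a median of 0.72. Over the 24 sums without clusters 3 and 8 they lay between -0.22 and 0.74, with a median of 0.32. These points share libraries, animals and depth, and no p is given. Beside them, 16 genes known to be induced by tissue dissociation, such as Fos, Junb and Zfp36, correlated as a sum with the members at 0.73 to 0.91 over 28 sums and 0.21 to 0.83 over 24, where the highest was Klf2.

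In the cluster and class comparisons the stress genes went the same way as the KLF genes only in part. Cluster 0 held 6.22% and 6.72% of its UMIs in the 16 stress genes and 0.606% and 0.726% in the 7 KLF genes. Cluster 12 held 1.13% and 1.02% in stress genes, and 0.189% and 0.205% in KLF genes. Its KLF share was near the 0.181% to 0.2498% of clusters 4, 5 and 11, which held 1.78% to 2.89% in stress genes. Most of the KLF share of cluster 12 was Klf6, at 1525 CPM. Clusters 3 and 8 held 0.138% to 0.286% in stress genes and 0.00728% to 0.0545% in KLF genes. In macrophage against dendritic clusters 12 of the 16 stress genes were lower and none higher with all clusters (median -0.71). There 18.9% of all genes and 1 of 7 members were lower. Without clusters 3 and 8, 16 of 16 were higher (median 0.87), where 17.4% of all genes and 6 of 7 members were. In cluster 0, 16 of 16 were higher than in the other clusters, and 15 of 16 without clusters 3 and 8, against 28.5% and 21.0% of all genes. In cluster 7, 14 of 16 were higher (median 1.24), and 9 of 16 without clusters 3 and 8 (median 0.42), against 19.2% and 11.7% of all genes. In cluster 12, 11 and 15 of 16 were lower (median -0.82 and -1.68), against 9.07% and 9.23%. Klf2, Klf4 and Klf13 were also lower there in both fits, and Klf10 in the fit without clusters 3 and 8, while Klf6 was higher in both. In cluster 5 against macrophage clusters, 13 of 16 were higher with all clusters, against 20.2% of all genes. Without clusters 3 and 8, 2 were higher and 13 lower, where 12.4% and 7.65% of all genes were. What dissociation contributed to the KLF levels was not tested.

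**Figure D4:**
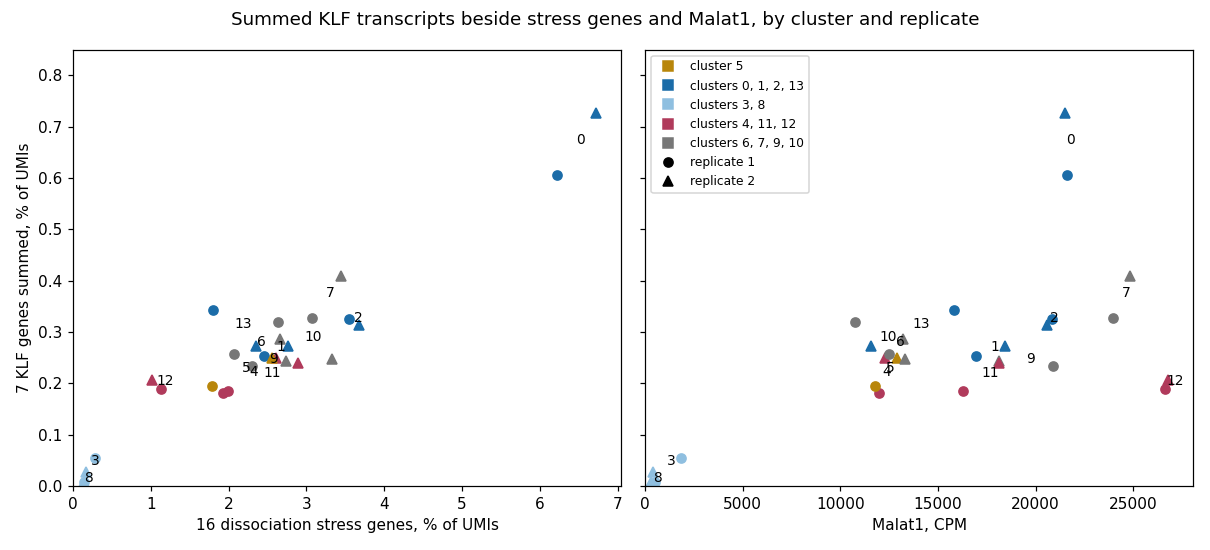
Summed share of UMIs in the 7 KLF genes (vertical, %) against that in 16 dissociation stress genes (left, %) and against Malat1 (right, CPM), 1 point per cluster and replicate, numbers naming clusters. Cluster 0 is highest in both KLF and stress genes (0.606% and 0.726% against 6.22% and 6.72%). Cluster 12 has much Malat1 and few stress transcripts, with a KLF share (0.189% and 0.205%), most of it Klf6, near those of clusters 4, 5 and 11. Clusters 3 and 8 lie at the origin of both panels.

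The genes whose levels followed each member most closely over the 28 sums, among 4539 genes that reached 50 CPM in both replicates of a cluster, included further immediate-early genes. For Klf2 they were Ier2 (r = 0.93), Tnrc18 (0.93) and Jund (0.92), for Klf3 Tnrc18 (0.91), Klf2 (0.90) and Rb1cc1 (0.88), and for Klf6 Stat3 (0.96), Zfp36 (0.95) and Dusp1 (0.95). For Klf4 they were Atf6 (0.94), Hspa1b (0.91) and Plk2 (0.91), and for Klf7 Git2 (0.91), Rybp (0.89) and Kdm2a (0.89). Klf10 was followed by Neurl3 (0.92), Ralgds (0.90) and Nktr (0.89), and Klf13 by Il6ra (0.89), Hnrnpll (0.87) and Zfp703 (0.87). Without clusters 3 and 8 most of these gave way to others: Tsc22d3, a glucocorticoid-induced gene, led for Klf2 (0.90), Fcgr2b for Klf4 (0.91), Znfx1 for Klf6 (0.73), Oasl2, an interferon-induced gene, for Klf10 (0.89), Cux1 for Klf13 (0.90), Acap2 for Klf3 (0.81) and Nsrp1 for Klf7 (0.84).

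Of 19 other genes of the KLF and SP family, 17 were in the table, 4 had no count and 7 had at least 100 counts. Klf9, a glucocorticoid-responsive member, was highest in the fibroblast-like cluster 9 (256 and 191 CPM, 223 ± 46.1) and was higher in cluster 0 than in the mean of the others (2.52 with all clusters, 1.77 without clusters 3 and 8). Of the family genes tested, 4 of 5 were higher in cluster 0 and 3 of 7 without clusters 3 and 8, against 28.5% and 21.0% of all genes. In macrophage against dendritic clusters 1 of 5 was lower, Sp1 (-1.66), and without clusters 3 and 8 1 of 7 was higher, Klf9 (1.57), shares near the 18.9% and 17.4% of all genes.

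Of 19 regulators and partners of KLF proteins, 9 of 15 tested were higher in cluster 0 and 1 lower, and 7 of 17 higher and 1 lower without clusters 3 and 8, where 28.5% of all genes were higher and 10.2% lower, and 21.0% and 8.32% without those clusters. Mef2c, a factor that drives Klf2 and Klf4 transcription in endothelium, was higher in cluster 0 (1.82 and 1.59 in the fits with and without clusters 3 and 8) and lower in cluster 12 (-2.43 and -2.72) and in cluster 5 against macrophage clusters (-0.80 and -1.49). Wwp1, a ubiquitin ligase that targets Klf2, was also higher in cluster 0 (2.32 and 2.30) and in macrophage than in dendritic clusters (1.39 and 1.76), and lower in cluster 12 (-1.95 and -2.03). Mef2a was higher in cluster 0 (1.06 and 0.66). Sin3b, a scaffold of corepressor complexes, was lower in macrophage than in dendritic clusters (-0.46 and -0.39) and higher in cluster 12 (0.76 and 0.71), and its cluster 0 values of -0.28 and -0.33 were not called. In macrophage against dendritic clusters 1 of the 15 regulators was higher and 2 lower, and without clusters 3 and 8 4 of 17 were higher and 2 lower, where 10.5% and 18.9% of all genes were higher and lower, and 17.4% and 12.3% without those clusters.

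Of 12 genes reported as KLF targets in other work, 11 were tested. With all clusters 8 were higher and 1 lower in cluster 0, and 2 higher and 2 lower in macrophage against dendritic clusters. In the fit of 12 clusters these counts were 7 and 1, and 6 and 2, where the median of the list was 0.62 and 1.68. Over all genes, 28.5% were higher and 10.2% lower in cluster 0 and 10.5% and 18.9% in macrophage against dendritic clusters, and without clusters 3 and 8 these shares were 21.0%, 8.32%, 17.4% and 12.3%. Mrc1, the mannose receptor, was higher in cluster 0 (2.82 and 2.12), and Cdkn1a, a cell cycle inhibitor, was higher there too (1.10 and 0.46). Cd14, the endotoxin co-receptor, was higher in cluster 0 (1.04 and 0.62) and in cluster 7 (2.07 and 1.59), and lower in cluster 12 (-1.98 and -2.44). Several of the 12 are macrophage markers, and Mrc1 and Retnla are in the marker lists that named the clusters, so that their direction is not independent of those names.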

How the data were processed

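Aortic CD45+ cells from 4 libraries went through 10x Genomics 3′ library preparation and were mapped to mm10 with Cell Ranger 3.0.2, per the labels' protocols, and processed with Seurat 3.1.1, per the submitters' processing notes. The authors deposited raw UMI counts of the cells they kept as myeloid, the total count and the percent of mitochondrial UMIs of each cell, and the cluster and library of each cell. The cell filters and the clustering had settings not given in the sources used here. Doublets were not called here, and removing the 5% of cells with the most UMIs in each library (152 cells) was tried instead. The deposited log-normalized values were not used.

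Counts were summed per cluster and biological replicate, giving 28 sums of 34464 UMIs or more. They were fitted with edgeR 4.0.16 in R 4.3.3 (TMM, filterByExpr, quasi-likelihood test, two-sided, Benjamini-Hochberg over all genes tested). Cluster and biological replicate were terms, since clusters of a replicate come from the same animals. Calls are adjusted p under 0.05. A fit was also tested on simulated data. Thinning drew 500 or 2000 UMIs per cell. Levels of lists and named genes follow lists of markers, family members, regulators, stress genes and targets, naming up to 4 genes per list by mean CPM and the 3 genes most like each member. The members, lists and tests were chosen with earlier results of these data known. The alternatives were DESeq2 1.42.0, limma 3.58.1 (prior count 2), RLE scaling, no filter, no replicate block, 4 libraries as samples, thinned cells, fewer clusters and each library left out. Promoters and their chromosome positions are RefSeq's on GRCm38.p6.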

Additional observations from a re-analysis of the deposited data

Results flagged for a closer look

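Of 35 groups of 4 libraries tested for a library far from the others, 3 were marked, and chance alone marks about 1 in 20. Levels per library within a cluster were taken for clusters 0, 1, 2 and 4 only. Klf3 in cluster 2 was 120.6 CPM in library 1-1, against 72.2, 74.6 and 67.3 CPM in libraries 1-2, 2-1 and 2-2. Klf4 in cluster 0 was 986 CPM in library 1-1, below the 1224, 1253 and 1249 CPM of the others. Klf7 in cluster 1 was 100.4 CPM in library 2-1, against 74.6, 76.0 and 77.5 CPM in the others. Library 1-1 was the smallest, with 236 cells.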

How the results depend on the processing

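Leaving out clusters 3 and 8 turned the sign of most members in both class comparisons. In macrophage against dendritic clusters, the log2 fold changes became 1.17 for Klf2, 0.33 for Klf3, 1.44 for Klf4, 0.63 for Klf6, 0.71 for Klf7 and 1.92 for Klf10, each from below 0, and the members called went to 6. In cluster 5 against macrophage clusters, the values of Klf3 (-0.033), Klf4 (-0.082), Klf6 (-1.03), Klf7 (-0.58) and Klf10 (-0.16) turned below 0. Pairs of member and cluster called higher fell to 21, and 4 pairs turned below 0 uncalled, Klf10 in cluster 4 (-0.0012), Klf4 and Klf6 in cluster 6 (-0.042 and -0.039) and Klf2 in cluster 13 (-0.0067). In both class comparisons the loss of values near 0 from the average is by construction.

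Thinning to 500 UMIs per cell, where fewer genes were tested, left 315 and 324 genes called in the 2 class comparisons, 2 members in cluster 5 against macrophage clusters, 18 pairs higher and 5 lower, and put Klf4 at 0.29 in macrophage against dendritic clusters. limma-trend called 481 genes and 2 members in cluster 5 against macrophage clusters and 16 pairs higher. The uncalled Klf10 difference in macrophage against dendritic clusters was 0.35 with limma-trend, 0.30 with DESeq2 and 0.039 once the 5% of cells richest in UMIs were dropped. The cause was not tested.

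With 1 library left out at a time, macrophage against dendritic differences ranged from -0.42 to 0.10 for Klf2, from -1.18 to 0.17 for Klf4, from -0.70 to 0.083 for Klf10 and from -0.041 to 0.91 for Klf13, all uncalled. Members called there ranged from 0 (without library 1-2) to 1, and genes called from 1150 to 1755. Against macrophage clusters, cluster 5 ranged from -0.44 to 0.17 for Klf2, with 810 to 1431 genes called, and in the fit of 12 clusters from -0.38 to 0.091 for Klf3 and from -0.39 to 0.072 for Klf4. Without the replicate block, Klf6 was at -1.05 and still called in macrophage against dendritic clusters, 4 members were called in cluster 5 against macrophage clusters, and 38 pairs of member and cluster were higher and 15 lower.

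Of the 58 pairs called with all clusters, limma-trend ended 29 calls, leaving out library 1-2 18, thinning 11 (20 kept) and leaving out library 2-2 9. Leaving out clusters 3 and 8 kept 25 calls, ended 18 and turned the sign of 4 more, which were then uncalled. The pairs in clusters 3 and 8 have no value there. Over these and the other alternatives 593 values kept the call, 119 lost it and 4, those above, turned their sign. The depth of clusters 8, 10 and 12, at 128202, 76427 and 233882 UMIs, limits what can be read there: 3 counts are 23.4, 39.3 and 12.8 CPM.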
